A study of Nannospalax ehrenbergi and Mus musculus with 14 samples.

Results

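The microRNAs described here carry the names miR-297, miR-466, miR-467 and miR-669. Most of their genes sit inside an intron of *Sfmbt2*, a Polycomb group gene, in the mouse genome. They were selected by name: every row of the deposited count tables whose name starts with 1 of these 4 names, followed by a letter, a hyphen or nothing more. This gave 74 of the 1326 names in the tables. Several names had identical values in all 14 libraries, and these were counted once, which left 56 members, with 4 of miR-297, 23 of miR-466, 8 of miR-467 and 21 of miR-669. Measured values served only to find identical rows, but the group was taken up after a rise of miR-466b-5p and miR-466o-5p in mouse tumors was known, so the values of that pair in mouse tumors are given as a description, without a test.

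Small RNA was sequenced from 14 libraries of *Spalax*, the blind mole rat, and of the mouse. All labelled animals had received 3-methylcholanthrene (3MCA), a chemical carcinogen, as 1 injection under the skin of the neck. The dose was 1 mg in *Spalax* and 200 µg in mice. *Spalax* Sp600 and Sp976 developed granulomas, which are benign, and were sampled after 14 and 16 months, whereas *Spalax* Sp2240 and Sp2230 developed fibrosarcomas, which are malignant, and were sampled after 18 and 30 months. Mice M512, M1023 and M1019 developed fibrosarcomas, sampled after 11, 12 and 14 weeks. Each *Spalax* gave a library of the injected side (IS) and of the uninjected side (UIS), and the mouse data comprise 3 IS and 3 UIS libraries. The mice were 3 to 4 months old and of the C57BL/6 strain. The *Spalax* were caught in the field and their exact age is unknown. The series as a whole used animals of about 2 years and of 10 years or older. All UIS samples on the labels also came from treated, tumor-bearing animals, so no labelled sample represents untreated tissue. The tissue is labelled as muscle on both sides.

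A microRNA is cut from a hairpin in a longer transcript, and either arm of the hairpin (5p or 3p) can become the mature strand that directs silencing of messenger RNAs. The *Sfmbt2* intron holds a large tandem array of such hairpins that is found in mice and rats, and is known mainly from the placenta and from embryonic stem cells, where *Sfmbt2* is expressed from the paternal copy. Among its products, miR-669a has been linked to repression of MyoD, the master regulator of muscle differentiation, in cardiac progenitors, and miR-467 to control of thrombospondin, an inhibitor of blood vessel growth.

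In the mouse annotation (GENCODE M21, GRCm38), 81 genes carry these names, and 71 of them lie in intron 11 of *Sfmbt2* on chromosome 2, on its sense strand. The intron runs from 10461473 to 10523944 and the hairpins from 10466663 to 10518279, a stretch of 51617 bp with a median gap of 209 bp between neighbours. Many genes occur as copies: 12 of Mir669a, 10 of Mir467a and 8 of Mir466b are all inside the intron. The other 10 genes are elsewhere, such as Mir466i on chromosome 13, on the strand opposite to *Cdk13*, and Mir466q on chromosome 3, within *Tnik*. Matched by name, 43 of the 56 members have only genes inside the intron, 7 have only genes outside it and 6 could come from either, among them miR-297a-5p and miR-297b-3p if Mir297-1 on chromosome 7 is counted as a copy of miR-297a. The description as an *Sfmbt2* cluster therefore holds for most members, but not for miR-466i-5p, on which several results turn.

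**Figure D1:**
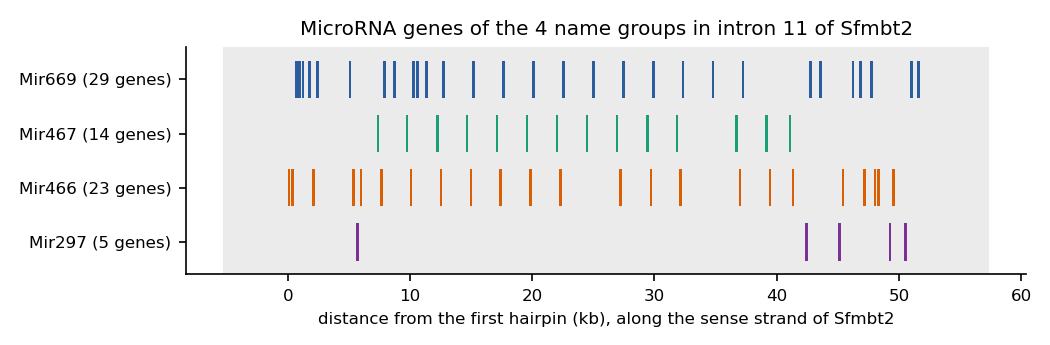
Position of the 71 microRNA genes in intron 11 of *Sfmbt2*, 1 row per name group, by distance in kb from the first hairpin. The grey band is the intron. The Mir467 (14 genes) and Mir466 (23 genes) hairpins alternate with Mir669 (29 genes) at regular spacing through the middle of the array, and 4 of the 5 Mir297 genes lie near its far end.

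Several names cannot be told apart in these tables, and their hairpins share long stretches. Shown are 2 pairs of genes whose products had identical values, as DNA letters of the GRCm38 transcripts (5′ to 3′, plus strand), with the longest stretch shared by the pair in capitals. miR-669a-5p and miR-669p-5p had the same value in every library, and so had miR-466b-5p and miR-466o-5p.
Mir669a-1, chr2:10476853-10476949: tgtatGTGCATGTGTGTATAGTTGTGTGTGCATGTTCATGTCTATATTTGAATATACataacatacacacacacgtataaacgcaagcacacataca
Mir669p-1, chr2:10489116-10489202: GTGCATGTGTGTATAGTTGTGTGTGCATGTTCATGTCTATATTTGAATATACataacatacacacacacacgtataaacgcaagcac
Mir466b-1, chr2:10474219-10474300: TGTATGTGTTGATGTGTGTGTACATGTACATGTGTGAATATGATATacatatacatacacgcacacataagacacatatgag
Mir466o, chr2:10472540-10472623: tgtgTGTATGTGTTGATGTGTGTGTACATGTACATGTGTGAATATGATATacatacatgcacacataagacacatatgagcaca

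The marked part of the shared stretch lies on the 5p side of the hairpin in both pairs. It has 52 bases in the Mir669a-1 pair and 46 in the Mir466b-1 pair. In all, 12 members carry more than 1 name (30 names). Of these, 10 had at least 10 reads, and 2 had fewer, where equal values may be a coincidence. Below, a member is called by its first name: miR-669a-3p includes miR-669o-3p, miR-467a-5p includes miR-467b-5p, miR-467a-3p includes miR-467d-3p, miR-466a-3p includes miR-466e-3p, miR-466b-3p includes miR-466c-3p and miR-466p-3p, and miR-669m-5p includes miR-466m-5p. A read of such a member cannot be assigned to 1 of the copies.

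The hairpins are rich in alternating T and G. The letters TGTGTGTG occur in 52 of the 81 member hairpins (64.2%) on the sense strand, against 192 of all 2202 microRNA hairpins of the annotation (8.72%), and these letters or their complement in 68 (84.0%) against 260 (11.8%). Matches on either strand can overlap other repeats. The gene Mir466q, outside the intron, is shown as an example, with its longest run in capitals.
Mir466q, chr3:28419943-28420018, plus strand: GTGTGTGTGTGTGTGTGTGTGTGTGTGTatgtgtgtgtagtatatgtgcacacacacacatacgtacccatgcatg

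The run is 28 bases long in Mir466q and 23 in Mir466i, both outside the intron, against 8 in Mir669a-1 and 9 in Mir466b-1. Whether reads listed under miR-466i-5p stem from other repeats of this kind was not tested.

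The libraries held 2034574 to 13982842 microRNA reads, with fewer on the IS (2034574 to 9574014) than on the UIS (11446933 to 13982842). On the UIS, the 15 names of a skeletal muscle list took up 27.7 to 29.8% of the microRNA reads in mice and 35.2 to 37.3% in *Spalax*, whereas they held 0.0101 to 3.95% on the mouse IS and 0.00959 to 0.165% on the *Spalax* IS, although these are also labelled as muscle tissue. In bulk tissue, fewer cells of a type and less RNA per cell cannot be told apart. The deposited values, here called normalized counts, are reads over a size factor of each library, and log2 fold changes are on the log2(normalized count + 1) scale. Nothing in the labels says more about how the replicates were taken than that they are separate animals, with the exception of 1 mouse UIS library. That library carries an animal number that no label has, is called the unnumbered library here, and was used as an unpaired sample of its group. The labels also name a UIS sample of mouse M1019, to which no library could be matched by number. Whether the unnumbered library is that sample cannot be told here.

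The members were more abundant in the mouse tumors than on the UIS and, except for miR-466i-5p, nearly undetected in *Spalax*. In mice, they took up 0.204%, 0.235% and 0.614% of all microRNA reads on the IS of mice M1019, M1023 and M512. On the UIS, they took up 0.0109% in mouse M1023, 0.00536% in mouse M512 and 0.0175% in the unnumbered library. All 3 tumors thus lay above all 3 uninjected sides, and the share on the IS was 21.6-fold that on the UIS in mouse M1023 and 114-fold in mouse M512. The difference was also present in the reads themselves, before any scaling: 19555, 13293 and 21202 reads in the tumors against 1469, 750 and 2007 on the UIS, although the UIS libraries were deeper. In *Spalax*, the share was between 0.000797% and 0.00492% in all 8 libraries. With reads on muscle microRNAs taken out of the total, the fold in the share was 15.8 in mouse M1023 and 86.1 in mouse M512. The size of this fold depended on the scaling: the summed normalized counts of the members were 4.76-fold higher on the IS in mouse M1023 and 16.3-fold in mouse M512.

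**Figure D2:**
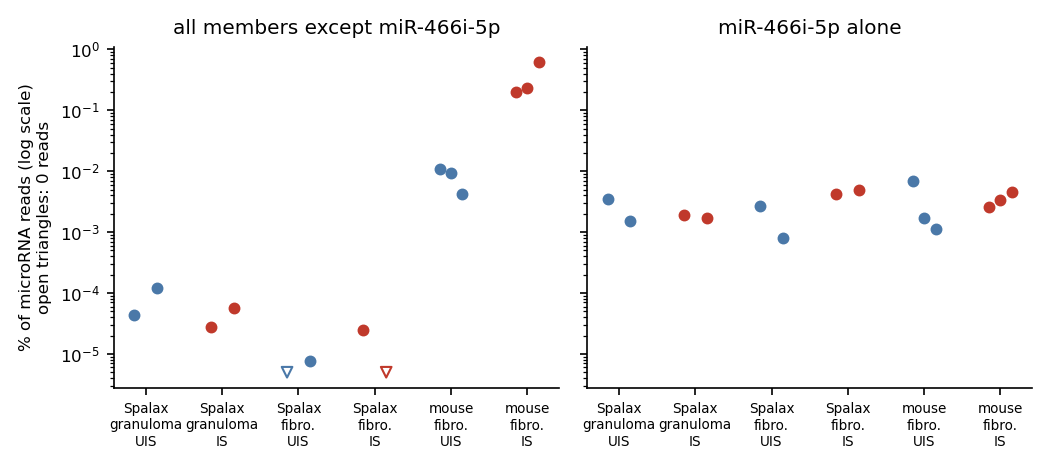
Share of microRNA reads (log scale) in each of the 14 libraries, on all members except miR-466i-5p (left) and on miR-466i-5p alone (right), with IS in red and UIS in blue. Open triangles mark libraries with 0 reads. Without miR-466i-5p, the mouse IS libraries lie at 0.202 to 0.609%, the mouse UIS at 0.00422 to 0.0107% and the *Spalax* libraries at 0.000121% or lower, whereas miR-466i-5p lies between 0.000789% and 0.0068% in all 14.

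Each of the 56 members had at least 1 read in mice. In the tumors, 54, 47 and 52 members were detected in mice M1019, M1023 and M512, against 30, 22 and 30 on the UIS of mouse M1023, mouse M512 and the unnumbered library, and 20 members had no read on any UIS. The 6 members miR-669a-3p, miR-669a-5p, miR-467a-5p, miR-467a-3p, miR-466b-3p and miR-466a-3p held 92.3 to 93.1% of the member reads other than miR-466i-5p in the tumors and 89.1 to 90.8% on the UIS. At the other end, 12 members had fewer than 10 reads over all libraries.

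To see which members differed between the mouse tumors and the UIS, all members were first compared by whether the groups overlapped. The normalized count was higher in every IS than in every UIS library for 38 of 56 members (67.9%, miR-466b-5p included), against 26.1% of the 1040 names with a mouse read. It was lower in every IS library for 2 members, miR-466i-5p and miR-466q, against 20.8% of those names, and overlapped for 16. In reads per 1000000 microRNA reads (RPM), which do not use the size factors, 44 members (78.6%) were higher in every IS library, against 54% of the names, and no member was lower in every IS library. In the fit across all 533 microRNAs with enough signal (a normalized count of at least 10 in at least 3 libraries), 22 members could be tested beside miR-466b-5p, which is left out of these counts. Of these, 18 (81.8%) were called higher in the tumors by limma (adjusted p under 0.05), where 30.8% of all microRNAs tested were called higher. One member, miR-466i-5p, was called lower, against a background of 26.1%. The median log2 fold change was 2.71 over the 22 members and 0.12 over all 533 microRNAs. Of the 22, 7 were below 10 on every UIS and passed through the tumors alone, and only 9 reached 10 in all 3 UIS libraries. The members other than these 9 needed at least 1 tumor library to pass the filter, so these counts are given as a description only. Of the 9 members at 10 or more in all 3 UIS libraries, 7 were called higher, 1 lower and 1 was not called. The share of all microRNAs under this same condition is not given here.

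The miR-669 group includes miR-669a, which is encoded by the most copies in the intron. miR-669a-3p had normalized counts of 391, 445 and 231 on the UIS (unnumbered library, mouse M1023 and mouse M512), and of 2133, 2550 and 4974 on the IS of mice M1019, M1023 and M512. The groups were far apart, with means of 355 ± 111 (SD, n = 3) and 3219 ± 1534 (SD, n = 3), a log2 fold change of 3.13 (SE 0.46, adjusted p = 0.00259). The opposite arm, miR-669a-5p, was at 380, 365 and 350 on the UIS and at 1356, 2024 and 5087 on the IS. Its UIS values were nearly equal, while those of the tumors differed among themselves, and it rose by 2.72 on the log2 scale (SE 0.52, adjusted p = 0.00582). In all, 7 of 8 miR-669 members tested were called higher, against 30.8% of all microRNAs tested. The exception was miR-669c-5p, which was at 21.7, 34.3 and 15.4 on the UIS and 35.5, 48.4 and 129 on the IS, a log2 difference of 1.39 that did not pass (adjusted p = 0.0886). Of those called, only miR-669a-3p and miR-669a-5p were at 10 or more on every UIS. The rest needed the tumors to pass the filter, so this count is a description only.

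All 5 miR-467 members tested were called higher (30.8% of all microRNAs tested were), with log2 fold changes from 1.71 to 2.87. Of these, miR-467c-5p and miR-467e-5p were under 10 in some UIS libraries and needed the tumors to pass the filter, so the count is a description only. miR-467a-5p was at 239, 332 and 254 on the UIS and at 1113, 1463 and 4853 on the IS, without overlap and with a log2 fold change of 2.87 (SE 0.58, adjusted p = 0.00706). Its 3p arm was at 74.7, 121 and 84.6 against 331, 493 and 1308, and rose by 2.70 on the log2 scale (SE 0.57, adjusted p = 0.00799). The 5p arm was the more abundant of the miR-467a hairpin in every mouse library, with 2.75 to 3.71 reads per read of the 3p arm. For miR-669a this ratio ran from 0.636 to 1.52, so neither arm was the more abundant throughout. The sums behind both ratios include all copies, and the 3p and 5p values of a hairpin include different other names.

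Of the 7 miR-466 members tested, 4 were called higher, 1 lower and 2 were not called. Of all microRNAs tested, 30.8% were called higher and 26.1% lower. Among the miR-466 members called higher, only miR-466a-3p and miR-466b-3p were at 10 or more on every UIS. The others needed the tumors to pass the filter, so these counts are a description only. miR-466b-3p was at 220, 132 and 53.8 on the UIS and at 790, 1174 and 2746 on the IS, a log2 fold change of 3.54 (SE 0.67, adjusted p = 0.00583). miR-466b-3p held 1.04 to 1.08 times the reads of miR-466a-3p in every mouse library, so that these 2 members are not independent observations. miR-466b-5p, known to rise from an earlier result, had no read on any UIS and 148, 92 and 171 reads in the tumors of mice M1019, M1023 and M512, with normalized counts of 53.7, 66.5 and 190. Against 3 reads per UIS library, it was at least 22.2-fold higher in the tumors. The members that did not pass were miR-466c-5p, with 12.2, 8.2 and 0 on the UIS against 19.6, 28.2 and 90.0 on the IS (adjusted p = 0.0517), and miR-466h-3p, with 5.4, 0 and 11.5 against 10.9, 22.4 and 33.3 (adjusted p = 0.0809).

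The miR-297 members were scarce. miR-297b-3p, the highest of them, had normalized counts of 10.9, 11.0 and 7.7 against 21.8, 34.7 and 160. Its log2 fold change was 2.24 (SE 0.75, adjusted p = 0.0396). As its UIS value in mouse M512 was under 10, it needed a tumor library to pass the filter. The call was also lost in 4 of 6 fits that left out a library (adjusted p of up to 0.113). miR-297a-5p had no UIS read and 44, 24 and 94 reads in the tumors of mice M1019, M1023 and M512, at least 9.87-fold above the floor of 3 reads. A like pattern was seen for miR-669m-5p, with no UIS read and 30, 30 and 60 in the tumors, at least 7.11-fold higher. Both passed the filter through the tumors alone, so no test is given.

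**Figure D3:**
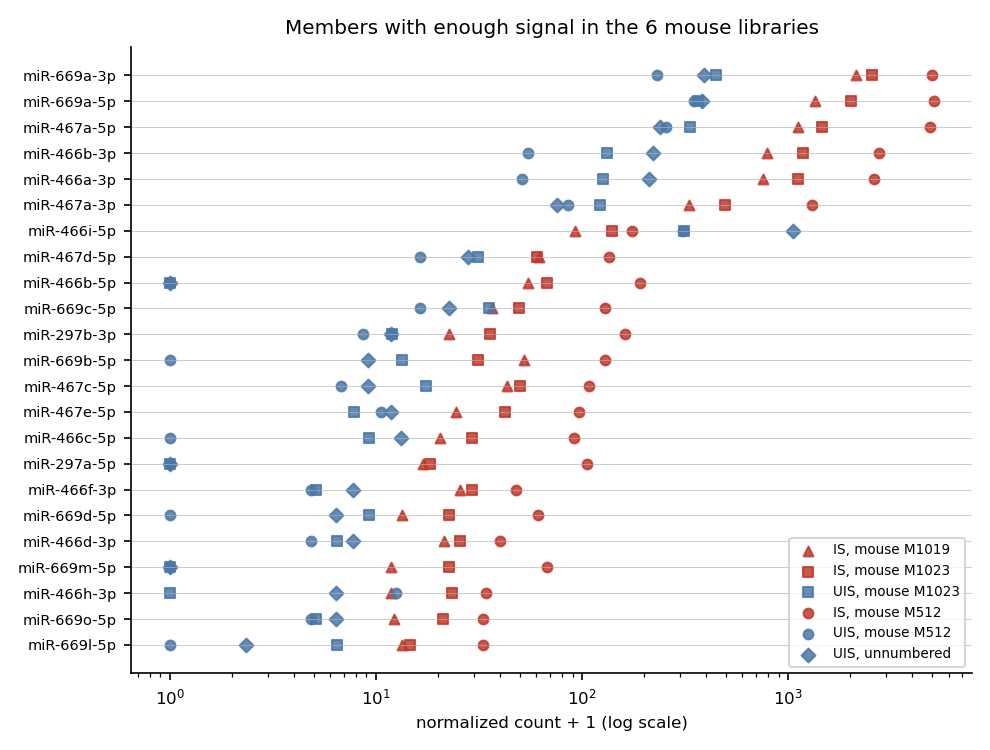
Normalized count + 1 (log scale) of the 22 tested members and miR-466b-5p in the 6 mouse libraries, with IS in red, UIS in blue and a marker shape for each mouse. For 20 of the tested members every IS point lies to the right of every UIS point (35.3% of the 533 microRNAs tested), miR-466h-3p overlaps, and miR-466i-5p lies the other way (in RPM its groups overlap), with the tumor of mouse M512 at the far right for the rest.

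The mouse tumors differed among themselves. The tumor of mouse M512 had the highest normalized count for 41 of the 43 members with at least 10 IS reads. Of the 719 names with as many reads, 40.6% were highest there. For 32 members the order was M512, M1023, M1019. The share of all names in that order is not given here, so this count is a description only. Members from the same array are not independent observations. The tumors of mice M512, M1023 and M1019 were sampled after 11, 12 and 14 weeks, and a relation to sampling time was not tested. The tumor library of mouse M512 also was the shallowest of the 3 (3455106 reads) and had the largest share on muscle microRNAs (3.95%, against 2.57% and 0.0101% in mice M1023 and M1019), while its share on the leukocyte list was the lowest (0.316%, against 0.708% and 1.58%). The part of these in the result was not tested. Leaving out this library left 16 members called higher of 22 tested. The share of all microRNAs called in that fit is not given here, so this count is a description only.

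To see how the member reads were made up on both sides, the share of single members was taken. Without miR-466i-5p, miR-669a-3p held 30.5, 26.9 and 21.3% of the member reads in the tumors of mice M1019, M1023 and M512, and 23.4, 26.1 and 20.3% on the UIS of the unnumbered library, mouse M1023 and mouse M512. miR-467a-5p held 15.9, 15.5 and 20.7% in the tumors and 14.3, 19.5 and 22.4% on the UIS. The groups overlapped in both shares. The share of miR-466b-3p was 7.72% on the UIS and 12.4% on the IS of mouse M1023, and 4.75% and 11.7% in mouse M512. It was higher in the tumor of both paired mice, while the unnumbered UIS library (13.2%) lay above all 3 tumors (11.3 to 12.4%).

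**Figure D4:**
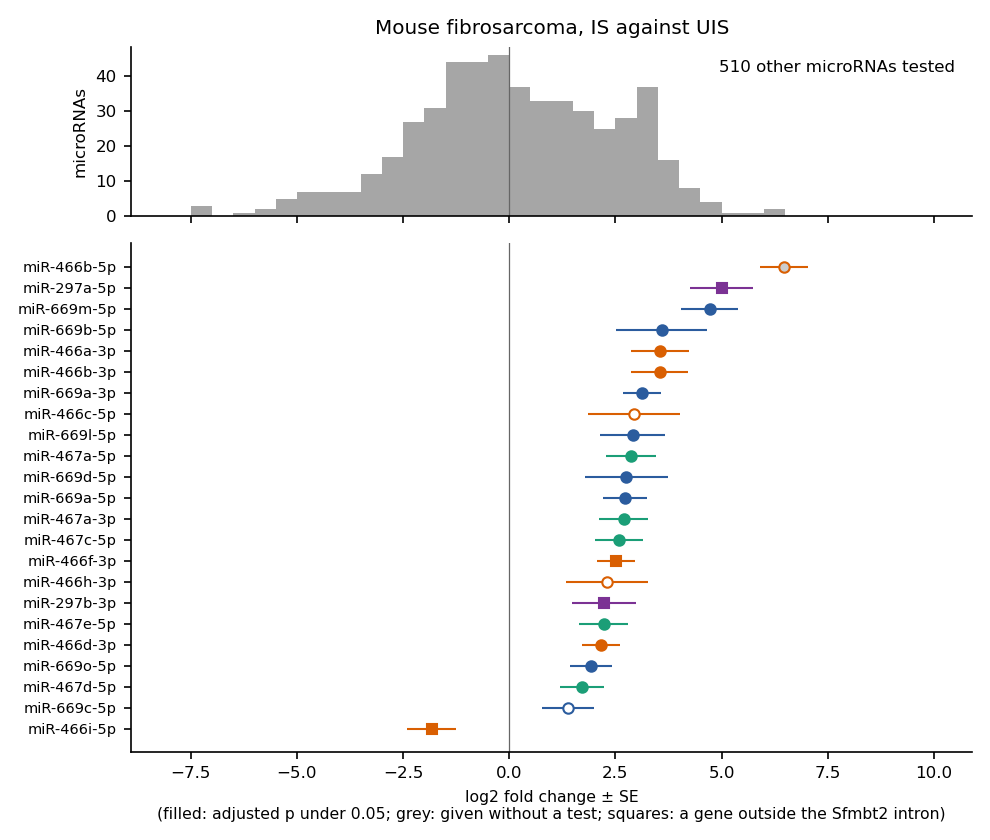
Log2 fold change (IS against UIS) in mouse fibrosarcoma. The upper panel is a histogram of the 510 other microRNAs tested, and the lower panel gives each of the 22 tested members and miR-466b-5p (grey, without a test) with its SE, coloured by name group, filled where adjusted p was under 0.05 and square where a gene of that name lies outside the *Sfmbt2* intron. The members lie at 1.39 or higher, except for miR-466i-5p at -1.83, which became 0.54 when scaled to total reads.

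miR-466i-5p differed from the rest. On the mouse UIS it was at 1056 (unnumbered library), 310 (mouse M1023) and 307 (mouse M512), and in the tumors of mice M1019, M1023 and M512 at 91.0, 139 and 173. The groups did not overlap, and the log2 fold change was -1.83 (SE 0.59, adjusted p = 0.0338). However, this direction depended on the scaling. Relative to total microRNA reads, it was at 68.0, 16.8 and 11.4 RPM on the UIS and 26.2, 34.2 and 45.2 in the tumors, and the log2 fold change became 0.54 (adjusted p = 0.507), as the median over all microRNAs moved from 0.12 to 2.41. Measured against that median, miR-466i-5p lay below it under both scalings. Of the 22 members tested, 18 were called higher with size factors and 21 with total scaling, where 67.5% of all microRNAs tested were called higher. The median of the 22 lay 2.59 above that of all microRNAs with size factors and 2.25 with total reads. With total scaling, 92.3% of all calls were rises, against 54.1% with size factors. The call of miR-466i-5p also was lost when either UIS library other than that of mouse M512, or the tumor library of mouse M1019 or M1023, was left out (adjusted p of up to 0.0855). miR-466q, whose gene also lies outside the intron, was singled out after its values were seen. It had 4, 7 and 9 reads on the UIS and 3, 0 and 2 in the tumors, too few to be tested.

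In *Spalax*, 47 of the 56 members had no read in any of the 8 libraries, which together held 65886527 microRNA reads. A count of 0 allows up to 0.230 to 1.47 RPM, depending on the library. For comparison, miR-669a-3p was at 8.58 to 25.2 RPM on the mouse UIS. Of the 9 members with reads, miR-466i-5p held 1587 and the other 8 held 26 in all. The largest of these was miR-669a-5p with 14 reads, all on the UIS of *Spalax* Sp976, where miR-669a-3p had none. miR-669b-5p had 3 reads on the UIS of *Spalax* Sp600, miR-466h-3p had 3 and miR-466f-3p had 2 over 2 libraries each, and miR-466g, miR-467e-5p, miR-467f and miR-669c-5p had 1 each. No miR-297 member had a read.

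miR-466i-5p was found in all 8 *Spalax* libraries and was the only member with enough signal to be tested there. In the granulomas, its normalized count was 83.6 in *Spalax* Sp600 and 77.3 in *Spalax* Sp976, against 582 and 241 on their UIS. It was lower in both animals, with means of 80.4 ± 4.49 and 411.9 ± 241 (SD, n = 2 each) and a log2 fold change of -2.21 (SE 0.69, adjusted p = 0.0319), in a comparison in which 22.7% of the 444 microRNAs tested were called lower. In the fibrosarcomas, it was 217 in *Spalax* Sp2240 and 184 in *Spalax* Sp2230, against 111 and 381.5 on their UIS, so that it was higher in 1 animal and lower in the other. The log2 difference was -0.04 (SE 0.69, adjusted p = 0.963), where 37.4% of microRNAs were called in either direction. The changes in granuloma and fibrosarcoma differed by -2.17 on the log2 scale (SE 0.98), which did not pass (adjusted p = 0.262), with 3.83% of microRNAs called. Relative to total reads, the granuloma difference was -0.38 (adjusted p = 0.645) and that of fibrosarcoma 1.63 (adjusted p = 0.0811), as the median of all microRNAs moved from 0.14 to 1.91 and from -0.24 to 1.40. The granuloma call was also lost without either granuloma library or without the UIS of *Spalax* Sp600 (adjusted p = 0.0837 to 0.186).

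**Figure D5:**
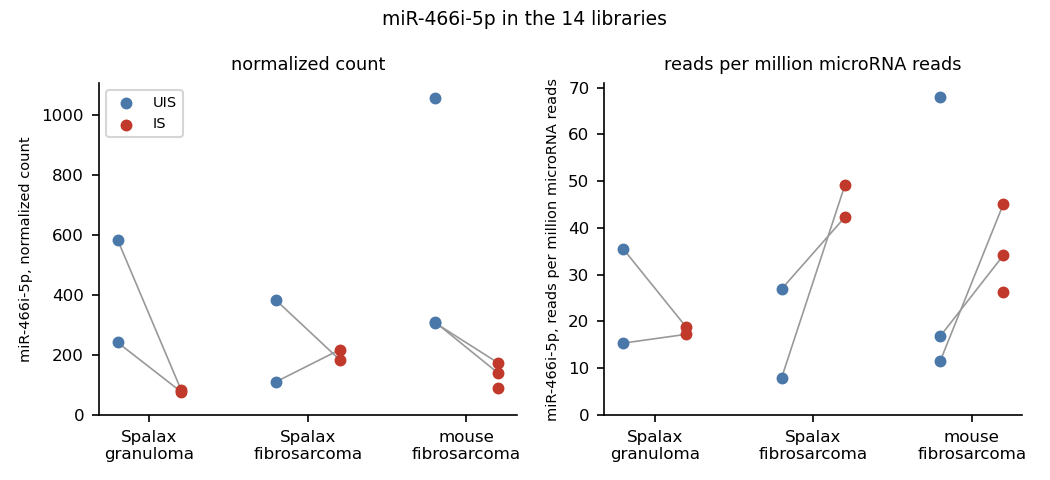
miR-466i-5p in the 14 libraries as normalized count (left) and in RPM (right), UIS in blue and IS in red, with lines joining both sides of an animal. As normalized counts, both granulomas lie below their own UIS and all 3 mouse tumors below all 3 mouse UIS libraries, whereas in RPM the mouse tumors (26.2 to 45.2) fall within the range of the UIS (11.4 to 68.0). The counts of the 2 species come from separately scaled tables.

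Both species were then compared in the 13 libraries that share a table, which leaves out the unnumbered mouse UIS. On the UIS, 24 members were tested, and 14 were called lower in *Spalax* (58.3%), where 26.1% of the 593 microRNAs tested were lower. None was higher, against a background of 12.6%. miR-297a-5p, miR-669m-5p and miR-466b-5p had no UIS read in either species, so they could not be called there. In the fibrosarcomas, 23 of 24 were lower in *Spalax* (95.8%), where 38.8% of microRNAs were, and none was higher, against 14.5%. These include miR-466b-5p, whose high values in the mouse tumors were known beforehand. Only miR-466i-5p reached 10 in at least 2 *Spalax* libraries. The other members passed the filter through the mouse libraries, for the UIS comparison also through mouse tumor libraries. These counts are therefore given as a description only. For most, the *Spalax* libraries had no read, so only a bound on the fold can be given, computed against 3 reads per library. On the UIS, miR-669a-3p was at least 70.1-fold and miR-467a-5p at least 61.3-fold lower in *Spalax*. In the fibrosarcomas, the bounds were 683-fold for miR-669a-3p, 602-fold for miR-669a-5p, 530-fold for miR-467a-5p and 335-fold for miR-466b-3p.

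miR-466i-5p was again apart. Its normalized counts were 111 to 582 on the *Spalax* UIS and 234 and 250 on the mouse UIS, with a log2 difference of 0.20 (SE 0.55, adjusted p = 0.813). In the fibrosarcomas it was at 184 and 217 in *Spalax* and 76.5 to 154.4 in mice, a log2 difference of 0.84 (SE 0.58, adjusted p = 0.255). The reads of both species are listed under mouse names, so a lack of the microRNA in *Spalax* and a lack of match to the mouse sequence cannot be told apart.

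As a reference for another imprinted cluster, the distal imprinted cluster (miR-379 to miR-410) also was higher in the mouse tumors, with 44 of 48 microRNAs called (91.7%, against 30.8% of all tested) and a median log2 fold change of 3.1. That cluster was measured in *Spalax* as well, with 42 microRNAs tested there. Of these, 32 were called higher in granuloma (76.2%, against 25.5% of all tested). In fibrosarcoma, 10 were called lower (23.8%), close to the 22.1% of all tested. The distal cluster passed the same filter, which the tumors alone could meet, so its counts are a description only. By contrast, only 1 of the members of the *Sfmbt2* name groups could be tested in *Spalax*.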

How the data were processed

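MicroRNA libraries were prepared with a TruSeq small RNA kit. Reads were trimmed of adaptors and mapped with mirDeep by the authors, who deposited a normalized signal (read count over a library size factor) in a table of 6 mouse libraries and a table that also holds *Spalax*. The build used for this mapping is not given in the sources used here. Whole reads were recovered from the size of the steps between the deposited values (tolerance 0.01).

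The main test was limma (3.58.1, trended spread) on log2(value + 1), for microRNAs at 10 or more in at least 3 mouse libraries, or 2 in fits with *Spalax*, each set of identical rows counted once, with Benjamini-Hochberg adjustment over all microRNAs tested. The *Spalax* IS-UIS comparisons share 1 fit of 8 libraries, and the species comparisons 1 fit of 13. Alternatives were edgeR 4.0.16 and DESeq2 1.42.0 on recovered reads, total scaling, another pseudocount, no filter, every name kept, the animal as a replicate block, and each library left out. The tests were tried on simulated data. Floors of 3 reads cover counting error only, since reads carry no molecular identifiers. The named members were the highest of each name group and the 5 highest per species, the 3 largest rises and falls called in each comparison, and miR-466b-5p. Other members are named where a count was small or after their values were seen. The members and lists were chosen with earlier results of these data known. miR-466b-5p, whose rise in mouse tumors was among these, was left out of all counts of members called there, a choice made after the data were seen. It was kept in the counts of the species comparisons. Gene positions are from GENCODE M21 (GRCm38, the build in the submitters' processing notes). The hairpin sequences of some members are not reported here. The animal numbers in the labels pair both sides. Deviations of paired libraries correlated weakly (0.0926 in granuloma, 0.0071 in *Spalax* fibrosarcoma, -0.1048 and 0.1273 in mice). R 4.3.3 and Python 3.11.15 were used.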

Additional observations from a re-analysis of the deposited data

How the results depend on the processing

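The number of members called higher in mouse tumors (miR-466b-5p left out) was 18 with edgeR, 20 with DESeq2, 21 with total scaling, 16 with a pseudocount of 0.1 and 19 with the animal as a replicate block, and 16 members were called by all of these and by the main test. It was 28 of 55 without the filter on low values, 28 of 32 with every name kept, and 15 to 21 when a library was left out (22 or 28 members tested). Of all microRNAs tested, 67.5% were called higher with total scaling, against 30.8% in the main test. Shares for the other settings are not given here. Members called lower in *Spalax* on the UIS numbered 9 with DESeq2 and 23 with every name kept (13 to 17 leaving out a library). In the fibrosarcomas they numbered 43 without the filter (19 to 23 leaving out a library). miR-466b-5p was not left out of these counts. Many members passed the filter only with the mouse tumors or, beside *Spalax*, the mouse libraries, so all these counts are a description only. For miR-466i-5p, total scaling gave -0.38 in granuloma (adjusted p = 0.645), 1.63 in *Spalax* fibrosarcoma and 0.54 in mice (adjusted p = 0.507), the last 2 with the opposite sign to the main test. Leaving out a library gave -2.84 to -1.57 in granuloma, -0.93 to 0.84 in *Spalax* fibrosarcoma, -3.05 to -1.28 for their difference, -2.13 to -1.24 in mice, and -0.24 to 0.64 for the species difference on the UIS. That of miR-669b-5p on the UIS ran from -2.77 to 0.60. The replicate block changed no call of miR-466i-5p (adjusted p = 0.0362 in granuloma). Counting every name moved the mean member share to 0.721% on the mouse IS and 0.0194% on the UIS. Without miR-466i-5p, an alternative chosen after seeing the data, it was 1.25e-05% and 3.83e-06% on the IS and UIS of *Spalax* fibrosarcoma. In granuloma it was 4.23e-05% and 8.23e-05%. These shares rest on means of 1.0, 0.5, 1.5 and 10 reads per library in the same order, too few to compare the sides. Without muscle microRNAs the mean share of all members was 0.00415% on the granuloma UIS. The cause of these changes was not tested.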
